A study of Mus musculus with 22 samples.

Results

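Cholesterol and fatty acid synthesis genes were followed in mouse embryonic fibroblasts (MEFs) by RNA-seq. The group was a fixed list of 34 genes that act in or around the sterol regulatory element-binding protein (SREBP) pathway. Of these, 33 were matched to an identifier among the 55401 of the deposited count table, and the expression of *Hmgcs1* was not analysed here. MEFs are primary fibroblasts from mid-gestation embryos that stop dividing when they are passaged serially. Each of 2 sets held early WT MEFs at passage 3 (4 libraries), late WT MEFs at passage 8 (4 libraries) and late knockout MEFs at passage 8 (3 libraries). The knockout was of S6K1 (KO) in the first set, named the *S6K1* set here, and of both S6K1 and S6K2 (DKO) in the *S6K1/S6K2* set. S6K1 and S6K2 are ribosomal S6 kinases that act downstream of mTORC1, and no group carried another allele or agent by the labels. The study's methods state that *S6K1* WT and KO MEFs were littermates, whereas DKO embryos came from S6K1+/-;S6K2-/- crosses and their WT controls from WT mothers, so genotype and litter cannot be told apart in the DKO comparison. The labels do not name the mother or embryo of a library, so the tests treated all libraries as independent. The study's methods describe RNA taken at passages 3 and 8 of a serial passage. Early and late libraries may thus share embryos or mothers, which no fit took into account.

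SREBP-1 and SREBP-2 are transcription factors that are made as membrane proteins of the endoplasmic reticulum. When sterols are scarce, SCAP escorts them to the Golgi, where proteases release the active factor, and the INSIG proteins hold SCAP back when sterols are plentiful. SREBP-2 is known chiefly for driving cholesterol synthesis and uptake, and SREBP-1c for driving fatty acid synthesis and desaturation, which supply membranes to growing cells.

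In the *S6K1* set, 5 genes (15.2% of 33) fell from early to late WT MEFs, against 5.97% of all genes tested. All 5 lengthen or desaturate fatty acids: *Elovl6*, *Scd1*, *Scd2*, *Fads1* and *Fads2*. In the *S6K1/S6K2* set, no gene of the list fell by the same test (edgeR), against 4.89% of all genes. *Insig1* and *Insig2* rose (6.06% of 33, against 8.28% of all genes), and they passed in 13 and 7 of 17 alternative settings. Other settings called genes lower there. DESeq2 called *Scd1*, *Fads1*, *Fads2*, *Acaca* and *Srebf1*, and 1 fit of all 6 groups *Acaca*, *Scd1* and *Fads1*. *Fads1* also passed with RLE scaling or without a filter on low counts. No gene of the list passed the test of a different passage effect between the sets (edgeR). No gene of the list passed with edgeR between late KO or late DKO MEFs and their late WT MEFs. Of all genes, 0.0425% passed for KO and 4.78% for DKO MEFs, and DESeq2 called *Fads2* lower in DKO MEFs. The plot of log2 fold changes gives every gene in the 4 comparisons.

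**Figure D1:**
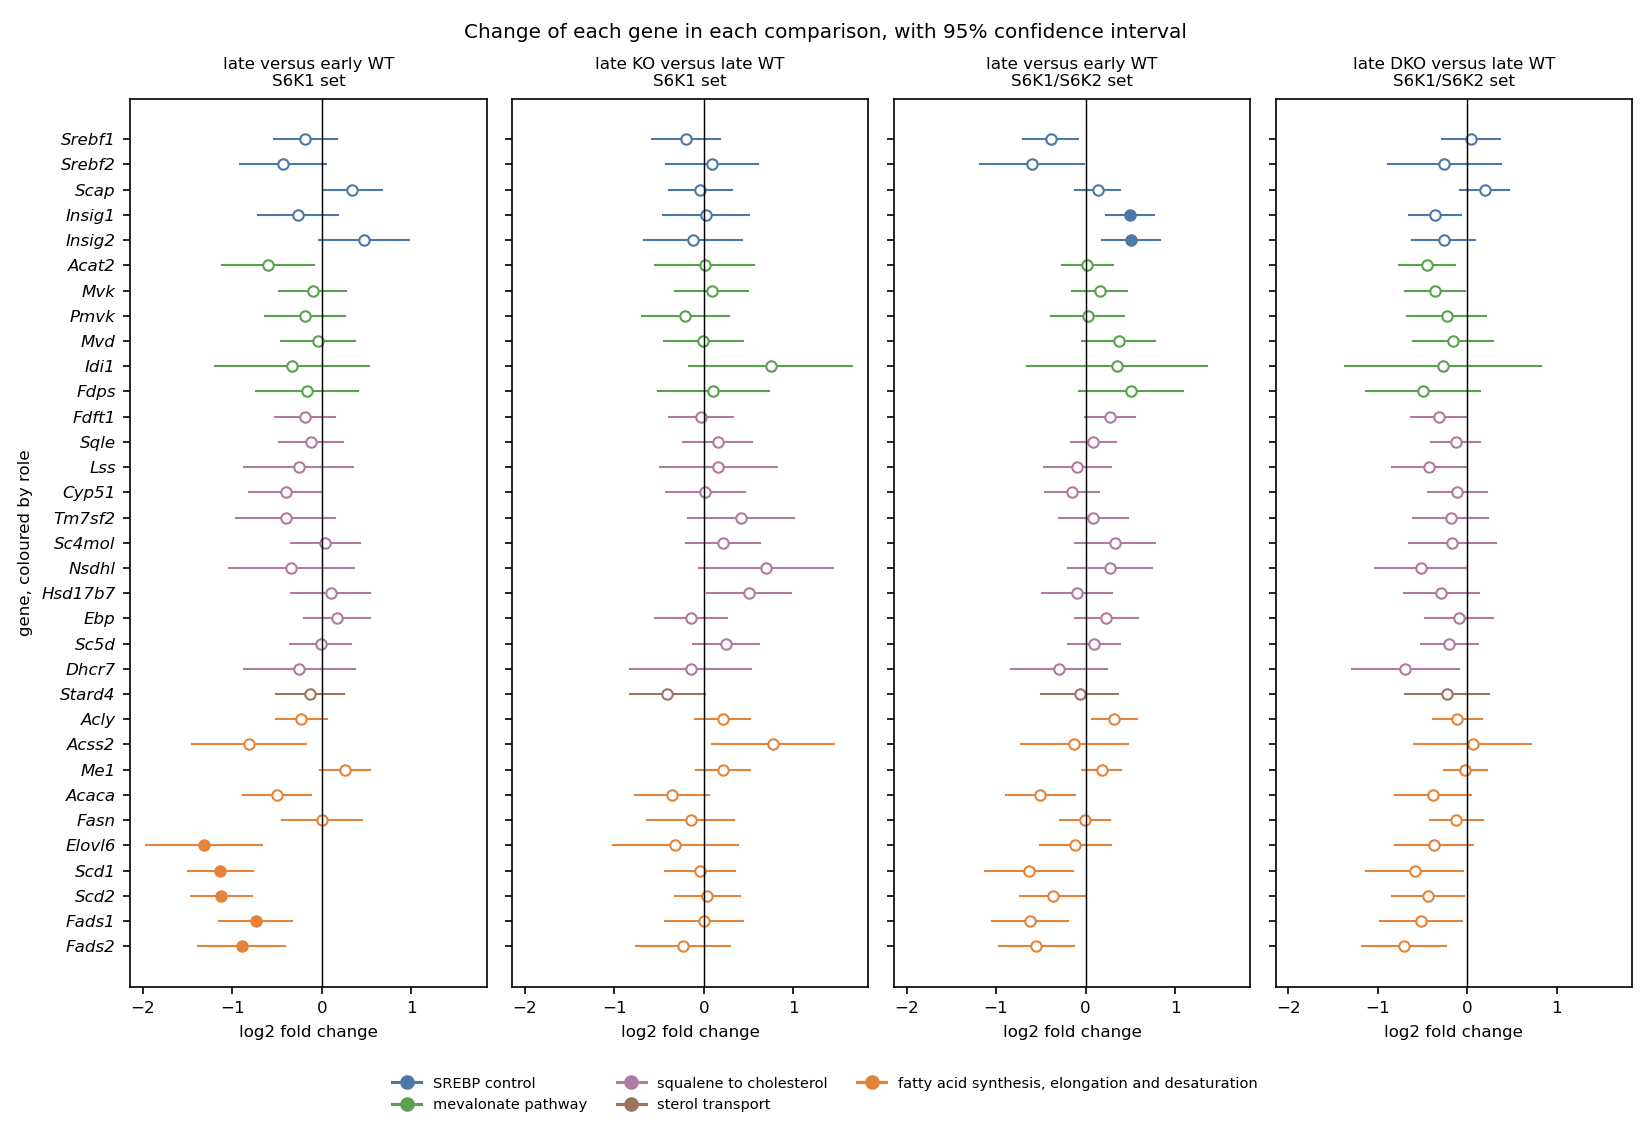
Log2 fold change (horizontal axis) of each of the 33 genes (vertical axis, coloured by role) in the 4 comparisons, with lines for the 95% confidence interval; filled points had an adjusted P under 0.05 (edgeR). Filled points are the 5 elongase and desaturase genes in late versus early WT MEFs of the *S6K1* set, and *Insig1* and *Insig2* in the *S6K1/S6K2* set.

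Counts per library totalled 10742454 to 17314832, and 3 counts corresponded to 0.173 to 0.279 CPM. CPM, the unit used throughout, is a gene's count relative to the total of its library, after TMM scaling over the 22 libraries. The targeted genes followed the labels: *Rps6kb1*, which encodes S6K1, had 20.1 ± 5.15 CPM in the 3 late KO libraries and 63.7 ± 8.78 CPM in the 4 late WT libraries (mean ± SD). The 3 late DKO libraries had 23.6 ± 4.30 CPM of *Rps6kb1* and 0.804 ± 0.484 CPM of *Rps6kb2*, which encodes S6K2, and their 4 late WT libraries 73.5 ± 10.8 and 13.1 ± 2.56 CPM (mean ± SD). Fibroblast markers (10 genes such as *Col1a1* and *Vim*) had lower sums in late than in early WT libraries of both sets. In the *S6K1* set they summed to 25010 to 33560 CPM (early WT), 15400 to 23010 CPM (late WT) and 17380 to 20270 CPM (late KO). For the *S6K1/S6K2* set the sums were 24180 to 35070 CPM (early WT), 16280 to 21470 CPM (late WT) and 19960 to 22540 CPM (late DKO). With passage, 2 of the 10 genes passed as lower in each set (edgeR), and 4 of 10 log2 fold changes were positive. Macrophage markers (20 genes such as *Lyz2* and *Csf1r*, none at 0 in all libraries of a group) rose with passage in both sets, 20 of 20 genes in the *S6K1* set and 19 of 20 in the *S6K1/S6K2* set, and 19 of 20 were lower in late DKO than late WT MEFs (edgeR). In the *S6K1* set they summed to 509.4 to 1185 CPM per early WT library, 5695 to 11740 CPM per late WT library and 3834 to 5136 CPM per late KO library. The sums in the *S6K1/S6K2* set were 636.8 to 2132 CPM (early WT), 7847 to 13470 CPM (late WT) and 986.4 to 3585 CPM (late DKO). Because the RNA is from bulk cultures, fewer cells of a type and less RNA per cell cannot be told apart. Endothelial markers (5 genes) summed to 3.885 to 14.45 CPM, and markers of epithelial or mesothelial cells (8 genes) to 55.43 to 118.2 CPM in early WT and 13.11 to 41.88 CPM in all late groups. Adipocyte markers (10 genes) summed to 60.02 to 164.4 CPM in early WT and 124.6 to 379.2 CPM in late WT MEFs. Late KO libraries had 83.72 to 149.7 CPM and late DKO libraries 77.56 to 99.02 CPM. Of the 4 genes with enough counts to test, 2 rose with passage in the *S6K1* set and 3 in the *S6K1/S6K2* set (edgeR). *Lep* and *Cfd* were at 0 in every library.

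Promoters of 3 of the 7 genes that passed are shown because the list is built around the SREBP transcription factors: *Elovl6* and *Fads2*, which fell in the *S6K1* set, and *Insig1*, which rose in the other set. Each is the 250 bases before the transcription start, 5′ to 3′ on the gene's strand, from RefSeq's GRCm38.p6, with an E-box (CACGTG) or NF-Y box (CCAAT, either strand) in capitals. RefSeq's table held a promoter for 27 of the 34 genes, *Hmgcs1* among them, and windows of *Scd1*, *Scd2* and *Fads1* were not analysed here.
Elovl6 (chr3:129532136-129532385, plus strand): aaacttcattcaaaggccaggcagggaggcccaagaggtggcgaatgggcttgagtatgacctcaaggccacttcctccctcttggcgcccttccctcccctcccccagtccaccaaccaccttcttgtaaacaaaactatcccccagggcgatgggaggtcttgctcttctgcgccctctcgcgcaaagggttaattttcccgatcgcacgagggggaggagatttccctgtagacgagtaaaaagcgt
Fads2 (chr19:10101504-10101753, minus strand): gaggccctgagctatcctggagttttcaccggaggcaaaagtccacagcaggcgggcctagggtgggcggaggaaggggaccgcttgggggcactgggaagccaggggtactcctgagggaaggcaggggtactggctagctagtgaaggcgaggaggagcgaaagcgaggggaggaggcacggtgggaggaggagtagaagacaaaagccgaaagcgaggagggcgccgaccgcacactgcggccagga
Insig1 (chr5:28071162-28071411, plus strand): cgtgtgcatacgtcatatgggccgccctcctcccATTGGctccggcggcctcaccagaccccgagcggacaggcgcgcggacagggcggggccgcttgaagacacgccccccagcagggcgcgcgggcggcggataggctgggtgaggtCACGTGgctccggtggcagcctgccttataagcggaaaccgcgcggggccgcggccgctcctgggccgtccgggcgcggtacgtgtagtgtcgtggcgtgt
The window of *Insig1* held 1 E-box, starting 101 bases before the start, and 1 NF-Y box, starting 216 bases before it. Neither motif was found in the windows of *Elovl6* and *Fads2*. *Insig2*, which also rose, had 3 annotated starts and is not printed. Its windows held no E-box, and 1 of the 3 held NF-Y boxes. The NF-Y box was in at least 1 window of 21 of the 27 listed genes (77.8%), against 37.5% of all 27025 genes in the table. An E-box was in a window of 5 of the 27 (*Dhcr7*, *Hsd17b7*, *Insig1*, *Sc5d* and *Scap*), against 6.86% of all genes. A sterol regulatory element spelled TCACNCCAC, searched on both strands, was in a window of 1 of the 27, *Hmgcs1*, and of 331 of the 27025 genes. A match of letters is a description of the window, and a missing match says only that these letters are not in it.

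The enzymes that build and modify fatty acids held the largest changes of the list. In late against early WT MEFs of the *S6K1* set, 5 of the 10 genes of this role fell, 9 of 10 had a negative log2 fold change, and their median was -0.78. Over the whole list the 5 that fell were 15.2% of 33 genes, whereas 5.97% of all 14132 genes tested were lower, and none of the list was among the 6.96% of all genes that were higher. The median of the 33 genes was -0.23 on the log2 scale and that of all genes -0.04.

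*Elovl6* (ENSMUSG00000041220.10, chromosome 3 from 129532386 to 129638495 in GRCm38.p6) encodes the elongase that takes palmitate to stearate. Its levels in the early WT libraries of the *S6K1* set were 45.7, 113, 75.6 and 119 CPM, and in the late WT libraries 39.0, 44.0, 22.7 and 38.0 CPM. The groups did not overlap, although the lowest early library, SG02, lay close to the highest late one. The change was -1.32 on the log2 scale (SE 0.30, 2.49-fold lower, adjusted P = 0.0128, edgeR).

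*Scd1* (ENSMUSG00000037071.3, chromosome 19 from 44394450 to 44407709) and *Scd2* (ENSMUSG00000025203.6, chromosome 19 from 44293676 to 44306864) encode stearoyl-CoA desaturases, which put the first double bond into saturated fatty acids. *Scd1* was at 124, 118, 159.8 and 101 CPM in early WT and 56.5, 61.5, 63.2 and 48.8 CPM in late WT libraries of that set. It fell by 1.14 on the log2 scale (SE 0.17, adjusted P = 0.00094, edgeR), and every late library lay below every early one. *Scd2* was at 813, 1065, 1091 and 1012 CPM in early WT and 436, 478, 432 and 493 CPM in late WT libraries. Its log2 fold change was -1.12 (SE 0.16, 2.18-fold lower, adjusted P = 0.000648, edgeR), again with no overlap. The genes are close paralogs and the handling of shared reads is not given in the sources used here, so the split of reads between them is uncertain.

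*Fads1* (ENSMUSG00000010663.5, chromosome 19 from 10182877 to 10196874) and *Fads2* (ENSMUSG00000024665.8, chromosome 19 from 10062765 to 10101503) encode the delta-5 and delta-6 desaturases of polyunsaturated fatty acid synthesis. Early WT libraries had 143, 139, 175 and 109.9 CPM of *Fads1*, and late WT libraries 88.2, 72.8, 80.6 and 99.6 CPM. *Fads1* changed by -0.74 on the log2 scale (SE 0.19, adjusted P = 0.0228, edgeR). *Fads2* was at 100.3, 95.2, 120.0 and 92.6 CPM in early and 55.5, 44.7, 40.0 and 79.7 CPM in late WT libraries, with SG23 the highest late library. It changed by -0.90 on the log2 scale (SE 0.22, adjusted P = 0.0203, edgeR). The groups did not overlap for either gene. Without library SG04, SG21 or SG22 the adjusted P was 0.0701, 0.0704 or 0.0782 for *Fads1* and 0.0581, 0.0635 or 0.0707 for *Fads2* (edgeR), and neither passed.

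**Figure D2:**
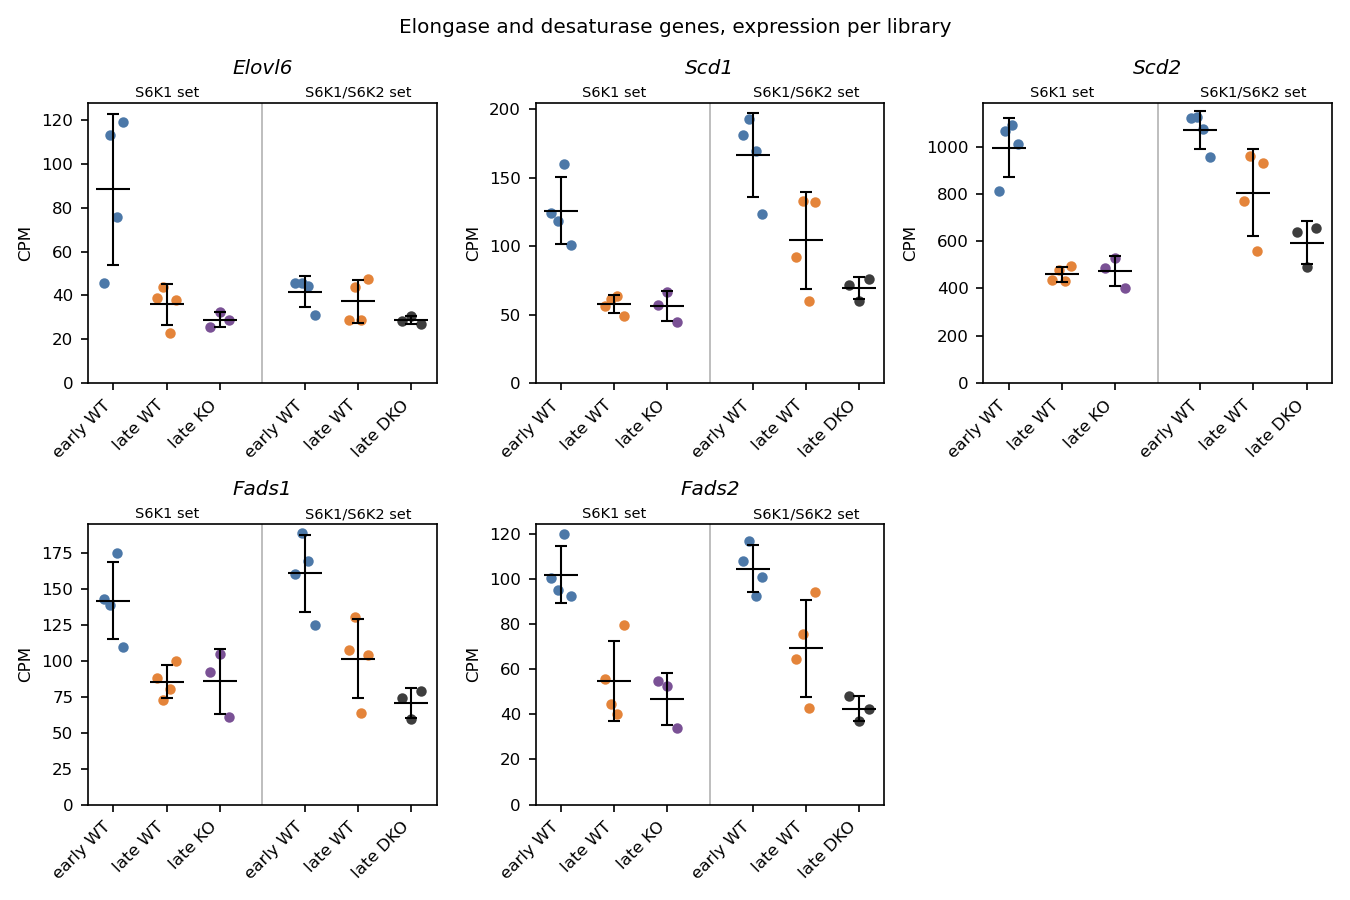
Expression (CPM, vertical axis from 0) of the 5 elongase and desaturase genes per library in the 6 groups (horizontal axis); each point is 1 library, the horizontal bar is the group mean and the whiskers are ± 1 SD. All 4 late WT libraries of the *S6K1* set lie below all 4 early WT libraries for each gene, and late KO libraries lie in the range of 25.4 to 32.3 CPM for *Elovl6* and 403 to 527 CPM for *Scd2*.

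The other enzymes of this role did not pass the test in that comparison. *Fasn*, the fatty acid synthase that makes palmitate, was at 145 ± 42.0 CPM in early and 146 ± 22.02 CPM in late WT libraries (mean ± SD, n = 4 each), and the 95% interval of its log2 fold change was -0.45 to 0.45. *Acaca*, which makes malonyl-CoA, had a log2 fold change of -0.50 (SE 0.17, adjusted P = 0.0811, edgeR). *Acss2*, which makes acetyl-CoA from acetate, was low (3.81 to 10.8 CPM) and had -0.82 (SE 0.29, adjusted P = 0.0894, edgeR). *Acly*, which makes acetyl-CoA from citrate, had -0.23, and *Me1*, an NADPH-making malic enzyme, had 0.26, the 1 positive value of the role.

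In the *S6K1/S6K2* set the same 5 elongase and desaturase genes had negative log2 fold changes with passage, but none passed. *Scd1* was at 181, 193, 169 and 123 CPM in early and 92.0, 133, 59.7 and 132 CPM in late WT libraries, a log2 fold change of -0.63 (SE 0.23, adjusted P = 0.0846, edgeR). The groups overlapped, since SG58 and SG60 exceeded the lowest early library, SG50. *Fads1* was at 161, 189, 169.5 and 125 CPM in early and 108, 130.4, 64.0 and 104 CPM in late WT libraries (-0.62, SE 0.19, adjusted P = 0.0543, edgeR). *Fads2* had -0.55 (adjusted P = 0.0809), *Scd2* -0.36 (adjusted P = 0.168) and *Elovl6* -0.12 (adjusted P = 0.701, edgeR). Library SG59 was the lowest late WT library for all 5. The early WT level of *Elovl6* was 88.5 ± 34.5 CPM in the *S6K1* set and 41.7 ± 7.005 CPM in the other (mean ± SD, n = 4 each), a difference between sets that was not tested. Other settings did call genes lower in this set. DESeq2 called *Scd1*, *Fads1*, *Fads2*, *Acaca* and *Srebf1*. With edgeR, RLE scaling or no filter on low counts called *Fads1*, and 1 fit of all 6 groups called *Acaca*, *Scd1* and *Fads1*.

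Whether passage acted differently in the 2 sets was tested as an interaction over the 22 libraries. No gene of the list passed with edgeR or DESeq2, whereas 0.712% of all 14886 genes passed with edgeR. An unadjusted P under 0.05 (edgeR) was found for 5 of the 33 genes and for 1421 of all 14886. The difference for *Elovl6* was 1.17 on the log2 scale (95% interval 0.40 to 1.93, adjusted P = 0.222, edgeR), and without SG02 it was the 1 gene that passed. For *Scd2* it was 0.73 (interval 0.26 to 1.19, adjusted P = 0.206, edgeR). *Fads1* differed by 0.08 (interval -0.50 to 0.67) and *Fads2* by 0.32 (interval -0.33 to 0.96).

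The rise of macrophage markers went with the fall of the desaturase genes in the *S6K1* set, and its part in the result was not tested. In late DKO MEFs the macrophage sum was 3585, 1098 and 986.4 CPM, so that SG61 lay above the early WT range of that set (636.8 to 2132 CPM) and the other two inside it. *Scd2* in these 3 libraries was at 638, 489 and 654 CPM, below the early WT libraries of the set (955 to 1123 CPM). *Scd1* in the same DKO libraries was at 71.6, 60.2 and 75.9 CPM, below the early WT range of 123 to 193 CPM. Early WT and late DKO MEFs differ in passage, genotype and litter, so these values are given side by side without a test. Markers of dividing cells (12 genes such as *Mki67*) did not pass in the *S6K1* set with passage (edgeR), where 10 of 12 log2 fold changes were negative (median -0.37). In the *S6K1/S6K2* set 6 of 12 fell, against 4.89% of all genes (edgeR), and 11 were negative (median -0.64). None of the 12 passed the test of a different passage effect between the sets (edgeR).

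Of the 5 genes that encode or control the SREBPs, 2 passed in a comparison. With passage in the *S6K1/S6K2* set, *Insig1* and *Insig2* rose, and they were 6.06% of the 33 genes, below the 8.28% of all 14365 genes that were higher. No gene of the list was among the 4.89% of all genes that were lower by edgeR. *Insig1* (ENSMUSG00000045294.11, chromosome 5 from 28071412 to 28078662) encodes a retention protein of SCAP and is itself a known SREBP target. It was at 38.5, 35.2, 44.9 and 41.0 CPM in early and 51.7, 65.2, 45.1 and 56.7 CPM in late WT libraries, so that SG59, the lowest late library, lay just above SG48. The log2 fold change was 0.50 (SE 0.12, 1.41-fold higher, adjusted P = 0.0212, edgeR). *Insig2* (ENSMUSG00000003721.14, chromosome 1 from 121304353 to 121332662), its paralog, was at 35.5, 37.7, 43.4 and 48.3 CPM in early and 49.1, 71.7, 57.4 and 50.1 CPM in late WT libraries. These groups were separated by less than 1 CPM, and the log2 fold change was 0.51 (SE 0.15, adjusted P = 0.0414, edgeR). Both calls ended without SG46 (adjusted P = 0.079 for *Insig1* and 0.143 for *Insig2*), SG47 (0.0865 and 0.133) or SG58 (0.0748 and 0.13, edgeR). *Insig2* was also lost without SG48, SG59, SG61 or SG62 (adjusted P = 0.0672, 0.101, 0.0508 and 0.065, edgeR).

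*Insig2* of the *S6K1* set had a passage log2 fold change of 0.47 (SE 0.23) and *Insig1* one of -0.27 (SE 0.21), and neither passed. The difference between the sets was 0.74 for *Insig1* (interval 0.22 to 1.25, adjusted P = 0.279, edgeR) and 0.01 for *Insig2* (interval -0.59 to 0.60). *Srebf1*, which encodes SREBP-1, was at 96.4 ± 7.90 CPM in early and 71.2 ± 10.4 CPM in late WT MEFs (mean ± SD, n = 4 each) of the *S6K1/S6K2* set (-0.39, SE 0.14, adjusted P = 0.0824, edgeR). *Srebf2*, which encodes SREBP-2, had -0.60 (SE 0.27, adjusted P = 0.153) there and -0.44 (SE 0.22, adjusted P = 0.222, edgeR) in the *S6K1* set. *Scap*, the escort of the SREBPs, had 0.34 in the S6K1 and 0.13 in the *S6K1/S6K2* set, and did not pass in either.

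**Figure D3:**
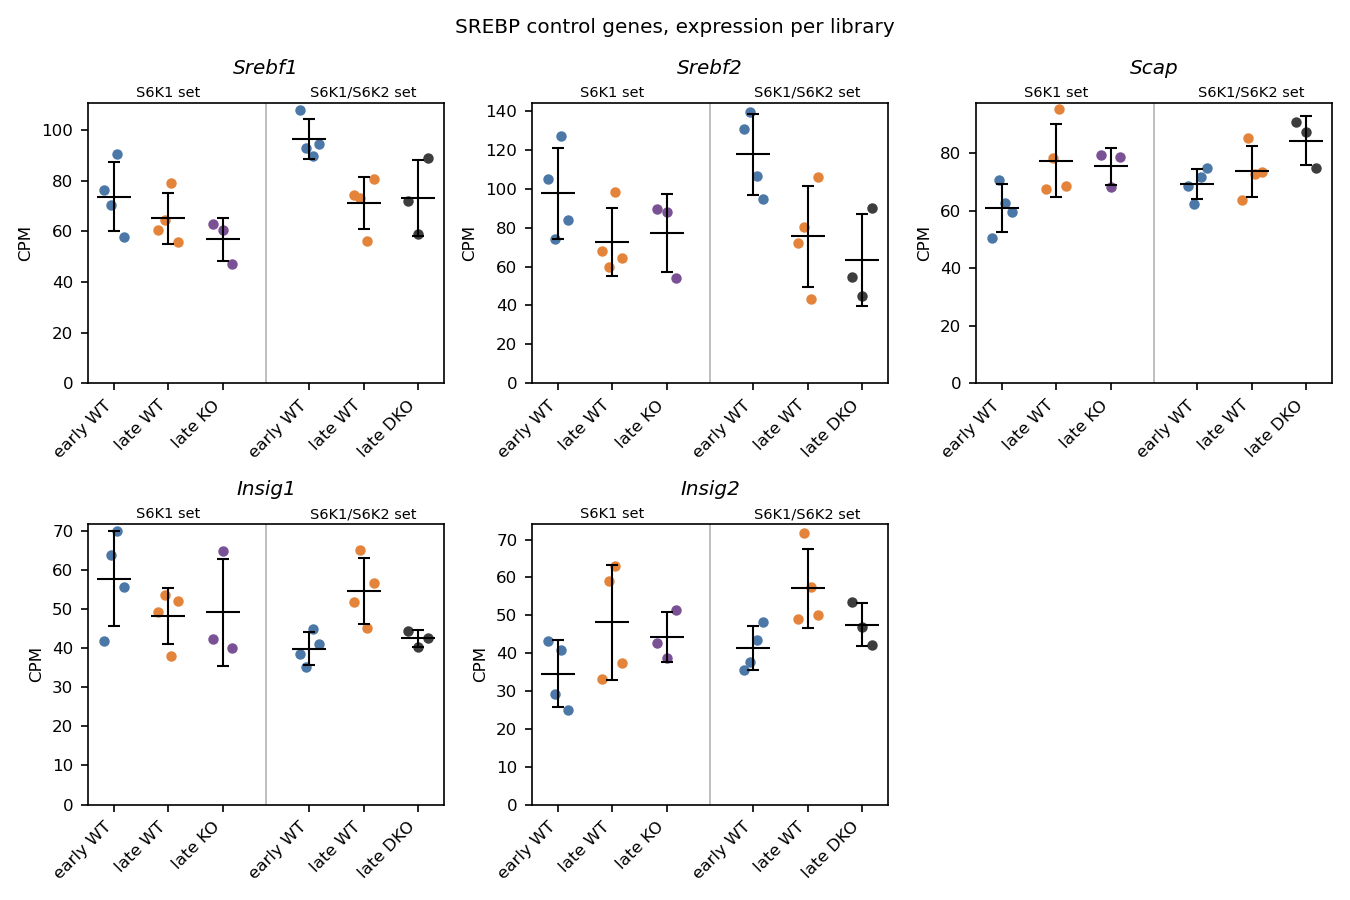
Expression (CPM, vertical axis from 0) of the 5 SREBP control genes per library in the 6 groups (horizontal axis), with the group mean as a bar and ± 1 SD as whiskers. In the *S6K1/S6K2* set the late WT points of *Insig1* (45.1 to 65.2 CPM) and *Insig2* (49.1 to 71.7 CPM) lie above the early WT points, by a small margin.

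The mevalonate pathway, which makes the isoprenoid units of cholesterol, had no gene that passed in any comparison in the main edgeR fits or with DESeq2. Other edgeR settings called *Acat2* lower with passage in the *S6K1* set (Y-linked covariate, or 6 groups in 1 fit). *Mvk* was called lower in DKO MEFs without SG61 (edgeR). The 6 measured genes of the pathway all had negative log2 fold changes with passage in the *S6K1* set (median -0.18). All 6 had positive ones in the *S6K1/S6K2* set (median 0.25). The interaction passed for none of the 6, with differences of 0.17 to 0.65. *Acat2*, the cytosolic thiolase that starts the pathway, was at 53.6, 82.0, 65.4 and 64.3 CPM in early and 53.6, 47.1, 26.6 and 49.0 CPM in late WT libraries of the *S6K1* set, with the lowest early and highest late libraries nearly equal (-0.60, SE 0.24, adjusted P = 0.121, edgeR). *Mvk*, *Pmvk* and *Mvd*, the kinases and decarboxylase of mevalonate, had -0.10, -0.18 and -0.04 in that set and 0.16, 0.02 and 0.37 in the other. *Fdps*, which makes farnesyl diphosphate, had -0.17 and 0.50. *Idi1*, the isopentenyl diphosphate isomerase, had the widest interval of the list in each of the 4 comparisons. It was at 0.942 to 5.29 CPM over the 22 libraries. Its close copies in the genome may make its count uncertain, which was not tested.

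From squalene to cholesterol, 11 genes were measured, and none passed in a comparison in the main edgeR fits or with DESeq2. *Fdft1* and *Sqle*, which make squalene and its epoxide, had passage log2 fold changes of -0.19 and -0.12 in the *S6K1* set and 0.28 and 0.09 in the *S6K1/S6K2* set. *Lss*, which closes the sterol rings, had -0.26 and -0.09. *Cyp51*, the lanosterol demethylase, had -0.40 (SE 0.19, adjusted P = 0.187, edgeR) and -0.15. With the Y-linked covariate *Cyp51* passed as lower with passage in the *S6K1* set (edgeR). The genes that trim and reduce the sterol (*Tm7sf2*, *Sc4mol*, *Nsdhl*, *Hsd17b7*, *Ebp*, *Sc5d* and *Dhcr7*) had -0.40 to 0.17 in the first set and -0.29 to 0.33 in the second. *Stard4*, a cytosolic sterol carrier, had -0.13 and -0.07.

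**Figure D4:**
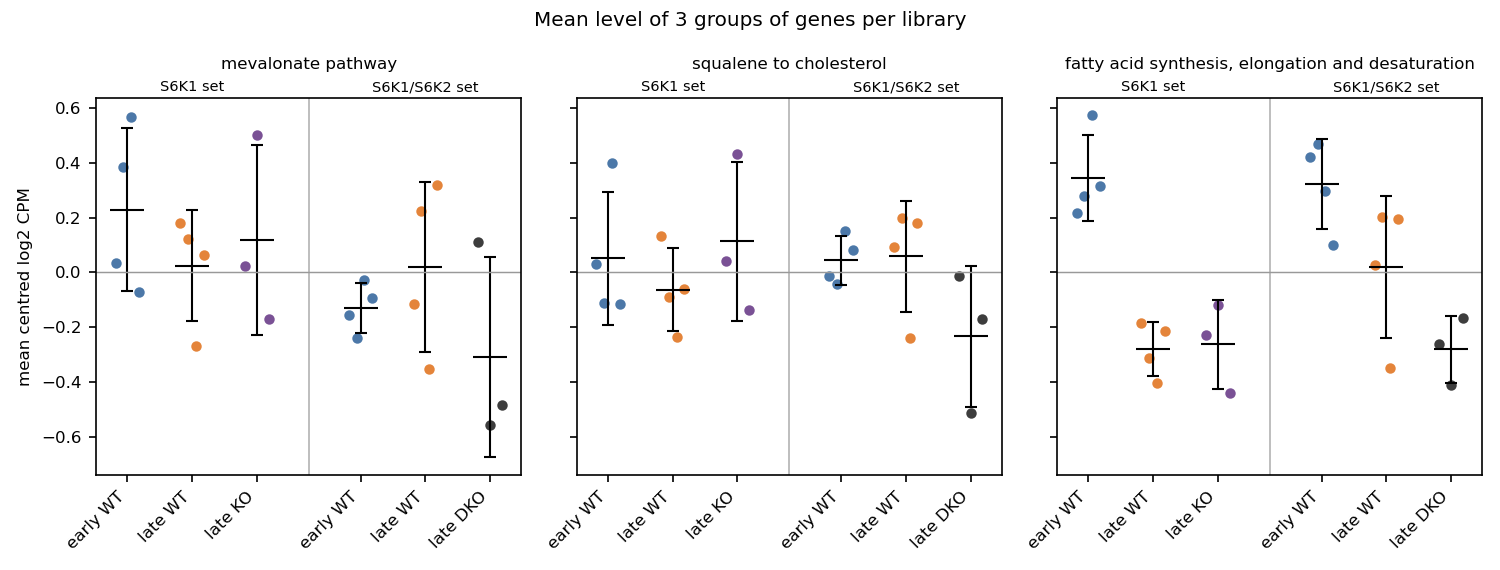
Mean level of the genes of a role as log2 CPM after subtracting each gene's own mean (vertical axis), per library in the 6 groups (horizontal axis), with group mean and ± 1 SD. The fatty acid genes lie between 0.22 and 0.57 in early WT and between -0.40 and -0.18 in late WT libraries of the *S6K1* set, whereas the ranges of those groups overlap for both cholesterol roles.

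As a mean of centred log2 CPM over the list, early WT libraries of the *S6K1* set were at 0.17 ± 0.20 (SD, n = 4), late WT libraries at -0.10 ± 0.08 (SD, n = 4) and late KO libraries at -0.04 ± 0.23 (SD, n = 3). For the *S6K1/S6K2* set the same mean was 0.10 ± 0.04 (SD, n = 4) at passage 3, 0.04 ± 0.24 (SD, n = 4) in WT and -0.24 ± 0.20 (SD, n = 3) in DKO MEFs at passage 8. Single libraries stood apart for many genes at once. SG04 was the highest early WT library of the *S6K1* set for 23 of the 33 genes, and without it the median passage change of the list was -0.03. Among late KO libraries SG25 was the highest for 23 genes and SG27 the lowest for 20. SG59 was the lowest late WT library of the *S6K1/S6K2* set for 22 genes. Of the DKO libraries SG62 was the lowest for 23 and SG61 the highest for 19. Per kilobase of exon (lengths from GENCODE vM1, which is older than the counted models), *Scd2* was the most abundant gene of the list in each group, at 84.3 to 196 CPM per kb.

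Loss of S6K1 gave no call on the list. Between late KO and late WT MEFs, 19 log2 fold changes were positive and 14 negative with a median of 0.02. None of the 33 genes passed with edgeR or DESeq2. Of the 33, 2 had an unadjusted P under 0.05, as did 1499 of all 14132 genes (edgeR). The balance of signs turned with single libraries, since 23 of 33 were negative without SG25 (median -0.15), 18 without SG22 (median -0.02) and 11 without SG27 (median 0.14). Of all 14132 genes, 0.00708% passed as higher and 0.0354% as lower by edgeR. *Elovl6* was at 25.4, 32.3 and 28.9 CPM in late KO libraries, *Scd1* at 57.3, 66.3 and 44.4 CPM, and *Scd2* at 487, 527 and 403 CPM. Each of these ranges overlapped that of late WT MEFs. The log2 fold change was -0.32 (interval -1.01 to 0.38) for *Elovl6*, -0.04 (interval -0.43 to 0.35) for *Scd1* and 0.04 (interval -0.32 to 0.40) for *Scd2*. The interval lay within -1 and 1 for 28 of the 33 genes and within -0.5 and 0.5 for 8, so for the others a log2 fold change of 0.5 in size still lay inside the interval.

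*Acss2*, *Idi1*, *Nsdhl* and *Hsd17b7* had the largest log2 fold changes in size. *Acss2* was at 7.26, 10.5 and 5.59 CPM in late KO and 5.60, 4.07, 4.70 and 3.81 CPM in late WT libraries (0.77, SE 0.31, adjusted P = 0.404, edgeR). *Idi1*, also weakly expressed, had 0.75 (interval -0.16 to 1.66, adjusted P = 0.573, edgeR). *Hsd17b7*, a ketosteroid reductase, was at 32.8, 38.7 and 29.5 CPM in late KO and 26.2, 21.3, 26.0 and 21.1 CPM in late WT libraries, without overlap (0.51, SE 0.22, adjusted P = 0.438, edgeR). *Nsdhl*, a decarboxylating sterol dehydrogenase on the X chromosome, had 0.70 (SE 0.34, adjusted P = 0.51, edgeR). Y-linked genes were expressed in 3 of 3 late KO and 1 of 4 late WT libraries, so the embryos' sex was unequal between the groups. With the Y-linked level as a covariate, 12 of the 33 log2 fold changes were negative (median 0.12). None of the list passed with or without this covariate, so the calls cannot show a part of sex, which was not tested.

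Most genes on the list had lower values in late DKO than in late WT MEFs, without a call by edgeR. Genotype and litter cannot be told apart there. Between late DKO and late WT MEFs, 30 of the 33 log2 fold changes were negative with a median of -0.26 (all genes -0.01). None passed with edgeR, although DESeq2 called *Fads2*. Of the 33 genes, 11 had an unadjusted P under 0.05, as did 2643 of all 14365 genes (edgeR). Among all 14365 genes, 3.95% passed as lower and 0.821% as higher by edgeR. The negative values covered all 6 mevalonate genes, all 11 genes from squalene to cholesterol and 9 of 10 fatty acid genes, whereas *Srebf1* (0.04), *Scap* (0.20) and *Acss2* (0.06) were positive. The genes share libraries, so the number of negative signs is a description. Without SG62, the lowest DKO library for most genes, 25 of 33 were negative and the median was -0.15. Y-linked genes were expressed in 1 of 3 late DKO and 3 of 4 late WT libraries, an imbalance of the embryos' sex opposite to that of the KO comparison. With the Y-linked level as a covariate, 31 of 33 were negative (median -0.35). None of the list passed with or without this covariate (edgeR), so the calls cannot show a part of sex, which was not tested.

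*Fads2* was at 48.0, 36.9 and 42.3 CPM in late DKO and 64.5, 75.5, 42.8 and 94.5 CPM in late WT libraries, with SG59 inside the DKO range (-0.71, SE 0.22, adjusted P = 0.088, edgeR). It was the 1 gene that passed when SG59 was left out, and *Mvk* the 1 that passed without SG61. *Dhcr7*, the last reductase of cholesterol synthesis, was at 7.97, 5.28 and 11.9 CPM in late DKO and 15.4, 14.7, 8.99 and 15.3 CPM in late WT libraries (-0.69, SE 0.28, adjusted P = 0.195, edgeR). *Acat2* was at 38.9, 35.8 and 26.8 CPM in late DKO and 44.1, 51.4, 44.9 and 44.7 CPM in late WT libraries, without overlap (-0.45, SE 0.14, adjusted P = 0.101, edgeR). *Insig1* was at 44.5, 40.3 and 42.6 CPM in late DKO libraries, all below the 45.1 CPM of the lowest late WT library (-0.36, SE 0.13, adjusted P = 0.167, edgeR). Markers of dividing cells were lower in DKO MEFs for 8 of 12 genes (edgeR), at a sum of 207 to 223.1 CPM against 324 to 379.3 CPM, and the part of these and of the macrophage genes in the values was not tested.

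The KO and DKO effects were compared as an interaction over all libraries, and the DKO effect cannot be told apart from litter. No gene of the list passed with edgeR or DESeq2, and 0.00672% of all 14886 genes passed with edgeR. An unadjusted P under 0.05 (edgeR) was found for 2 of the 33 genes and for 1626 of all 14886. The largest difference was that of *Nsdhl*, -1.20 (interval -2.13 to -0.28, adjusted P = 0.353, edgeR). Sex was unequal in opposite directions in the KO and DKO comparisons and *Nsdhl* is X-linked. None of the list passed with or without the Y-linked covariate, and the part of sex was not tested. The difference for *Scd2* was -0.46 (interval -0.97 to 0.04) and for *Elovl6* -0.04 (interval -0.87 to 0.79).

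Other genes of lipid metabolism were taken from lists around the pathway. Their counts stand beside the share of all genes that passed in either direction, which was 12.9% with passage in the *S6K1* set, 13.2% with passage in the *S6K1/S6K2* set and 4.78% between late DKO and late WT MEFs (edgeR). Among LXR targets and cholesterol efflux genes (8 tested), *Nr1h3*, *Abca1* and *Smpdl3a* rose and *Lpcat3* fell with passage in the *S6K1* set, and *Nr1h3*, *Abcg1*, *Smpdl3a* and *Arl4c* rose and *Lpcat3* fell in the *S6K1/S6K2* set (edgeR). *Abca1*, the main cholesterol exporter to apolipoproteins, had 0.81 (SE 0.19, adjusted P = 0.0146, edgeR) in the *S6K1* set. *Lpcat3*, which loads polyunsaturated chains into phospholipids, had -0.70 (adjusted P = 0.0106) in the S6K1 and -0.48 (adjusted P = 0.0232, edgeR) in the other set. The share of the 8 genes that passed with passage was 50% in the *S6K1* and 62.5% in the *S6K1/S6K2* set. Late DKO MEFs had less *Abcg1* (-1.58, adjusted P = 0.0185) and *Arl4c* (-0.95, adjusted P = 0.00351, edgeR) than late WT MEFs, 25% of the list.

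Of 15 genes of cholesterol uptake, storage and trafficking, *Lipa*, the lysosomal lipase of cholesteryl esters, rose and *Vldlr* fell with passage in both sets. With passage 13.3% of the 15 genes passed in the *S6K1* set, close to the share of all genes, and 33.3% in the *S6K1/S6K2* set. *Lipa* had 1.33 (adjusted P = 0.000273) and 1.03 (adjusted P = 0.000633, edgeR). In the *S6K1/S6K2* set *Gramd1b* also rose and *Scarb1* and *Lrp8* fell, and in late DKO MEFs *Scarb1*, *Lipa*, *Stard5* and *Gramd1b* were lower, 26.7% of the list (edgeR). *Lipa*, *Abca1* and *Nr1h3* are also expressed by macrophages, whose markers moved the same way, and the part of these cells was not tested.

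In the remaining lists 0% to 18.8% of the genes passed with passage and 0% to 6.25% between late DKO and late WT MEFs. Among other elongases, desaturases and acetyl-CoA genes (16 tested), *Acsl5* rose in the *S6K1* set, and *Elovl4*, *Elovl5* and *Tecr* fell in the *S6K1/S6K2* set with passage. *Elovl5*, an elongase of polyunsaturated chains, had -0.79 (SE 0.18, adjusted P = 0.0142, edgeR). Of 16 genes of triglyceride synthesis and lipid droplets, *Mgll* rose and *Lpin3* fell with passage in the *S6K1* set, *Dgat1* and *Dgat2* fell in the other set, and *Agpat2* was lower in DKO MEFs. Fatty acid oxidation (18 tested) had *Cpt1c* lower in the *S6K1* set and *Cpt2*, *Acads* and *Ppard* lower in the *S6K1/S6K2* set with passage. Among 13 tested genes of SREBP processing and degradation, *Lpin1* alone passed, rising with passage in the *S6K1/S6K2* set, and of 11 isoprenoid branch genes *Coq2* and *Fnta* rose there (edgeR). None of these lists had a gene that passed between late KO and late WT MEFs with edgeR.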

How the data were processed

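The 22 RNA-seq libraries of MEFs fell into 6 groups by their sample labels. The deposited values are raw counts per gene, without normalization. The study's methods name CASAVA, TopHat, the mm9 build and HTSeq, whereas the submitters' processing notes list CASAVA, STAR 2.7.1a, DESeq2 1.28.1 and mm10, so the aligner and build of the counts are uncertain. The annotation release and strand setting are not given in the sources used here.

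Symbols were matched to 32589 of 55401 identifiers, and genes without one stayed in the fits. Coordinates and promoters are RefSeq's (GRCm38.p6). In R 4.3.3, edgeR 4.0.16 filtered low counts (filterByExpr), scaled libraries (TMM) and ran its robust quasi-likelihood F test on the 3 groups of a set, with Benjamini-Hochberg adjustment over all genes tested and a threshold of 0.05. Interactions used all 6 groups. Intervals are 95% and cover these libraries. Mean levels used log2 CPM with a prior count of 2. The scripts were tested on simulated data. By the naming rule, listed genes that passed are given per library of that set and the others by range or fold change, and each further list names at most the 3 genes with the smallest adjusted P per comparison. Per-library values of genes that did not pass, and names beyond 3, were chosen after their values were seen. Alternatives were DESeq2 1.42.0, RLE scaling, no filter, 2 or 6 groups in the fit, a Y-linked covariate, other summaries and leaving out each library. The genes of the list, the other lists and the rule for naming genes were chosen with earlier results of these data known. Some genes of the pathway are not reported here.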

Additional observations from a re-analysis of the deposited data

Results flagged for a closer look

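In groups of 4 libraries, 1 library lay far from the other 3 for 11 of 136 values examined (33 genes and their mean in 4 groups each), by Dixon's 95% limit, which chance passes in about 1 of 20 groups. No explanation was tested. In early WT MEFs of the *S6K1* set, *Fdft1* was low in SG02 (92.8 CPM, others 118.6 to 122.5 CPM) and *Sc5d* high in SG04 (108 CPM, others 71.8 to 75.2 CPM). Among late WT libraries of that set, SG22 was low for *Fdps* (14.5 CPM, others 23.2 to 24.2 CPM) and *Ebp* (42.6 CPM, others 53.0 to 54.6 CPM), SG19 was high for *Nsdhl* (26.4 CPM, others 18.7 to 19.8 CPM), and SG21 was low for *Dhcr7* (9.73 CPM, others 12.4 to 12.7 CPM). *Elovl6* was low in SG50 among early WT libraries of the *S6K1/S6K2* set (31.2 CPM, others 44.4 to 45.8 CPM). In late WT MEFs of that set, SG59 was low for *Sqle* (91.6 CPM, others 115 to 118.7 CPM), *Tm7sf2* (8.77 CPM, others 14.3 to 15.2 CPM) and *Dhcr7* (8.99 CPM, others 14.7 to 15.4 CPM), and SG58 was high for *Acat2* (51.4 CPM, others 44.1 to 44.9 CPM). No gene of the list passed the test of a difference between the sets.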

How the results depend on the processing

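*Elovl6*, *Scd1* and *Scd2* passed in late versus early WT MEFs of the *S6K1* set under all 17 alternatives, with adjusted P up to 0.0408 for *Elovl6*. *Fads1* and *Fads2* each passed in 14 of 17, *Insig1* of the *S6K1/S6K2* set in 13 of 17 and *Insig2* in 7 of 17. Of these, the 2-group fit lost *Insig2* (adjusted P = 0.0507, edgeR), the 6-group fit both *Insig1* (0.0794) and *Insig2* (0.118), and the Y-linked covariate *Insig2* (0.0694). No result changed sign while passing. The embryos' sex was also unequal between passages. In the *S6K1* set, Y-linked genes were expressed in SG02 and SG04 (early WT) and in SG22 (late WT). In the *S6K1/S6K2* set they were expressed in SG47 and SG48 (early WT) and in SG57, SG58 and SG59 (late WT). For the *S6K1* set the count of genes that changed with passage was 5. With the Y-linked covariate it was 9, which added *Acat2* and *Cyp51* (lower) and *Insig2* and *Me1* (higher). With 6 groups in the fit it was 6, which added *Acat2* (lower). Leaving out 1 library gave 3 to 6. In the *S6K1/S6K2* set the count was 2, and 8 with DESeq2, 1 with only the 2 groups compared, 3 with RLE scaling or no filter (both added *Fads1*, lower) and 0 to 5 when 1 library was left out. With the Y-linked covariate it was 2, *Insig1* and *Acly*, both higher. With 6 groups in the fit it was 3 (*Acaca*, *Scd1* and *Fads1*), of which none was among the 2. For late DKO against late WT MEFs the count of 0 was 1 with DESeq2 and 0 to 1 when 1 library was left out. The test of passage between the sets gave 0 to 1 when 1 library was left out. The counts for KO against WT and for the difference of the knockout effects were 0 in every alternative run. Over the alternatives the median log2 fold change of the list was -0.30 to -0.03 with passage in the *S6K1* set, -0.06 to 0.10 with passage in the *S6K1/S6K2* set, -0.15 to 0.14 for KO and -0.36 to -0.15 for DKO MEFs. The cause of these changes was not tested, except that fewer libraries or groups were used by construction. Replicate numbers are unique library codes and are not shared by groups, and no litter is named, so no paired fit was made. *Idi1*, at under 6 CPM, had the widest interval of the list in each comparison of 2 groups, and wide intervals also occurred at higher levels (*Elovl6*, *Srebf2*).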
